A study of Homo sapiens with 6 samples.

Results

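A group of 10 imprinted genes was followed in TCam-2, a long-established line from a human testicular seminoma whose cells resemble germ cells. The genes were H19, IGF2, CDKN1C and KCNQ1OT1 on chromosome 11, DLK1 and MEG3 on chromosome 14, PEG10 and MEST on chromosome 7, SNRPN on chromosome 15 and PEG3 on chromosome 19. They were chosen by name, with earlier results of these data known. All 10 had an entry among the 62700 genes of the deposited table, and 7 of the 10 were among the 14292 genes with enough reads to be tested. IGF2, MEG3 and SNRPN fell under that minimum and are described by their values alone.

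The study asked which genes change in expression or splicing when TCam-2 cells are made to produce RBMXL3, an RNA-binding protein of the RBMX family. Polyadenylated RNA was sequenced in 3 groups of 2 libraries each. The RBMXL3 group was transduced with FLAG-tagged RBMXL3, the GFP group with FLAG-tagged GFP, and the WT group was not transduced. Both control groups thus come from the same line, and GFP shares the transduction with RBMXL3. The labels give no clone, promoter or expression level for the transduced cells and name no separate cultures, so p-values measure the spread between these libraries, which may be technical. In whole-culture RNA, fewer cells expressing a gene and less RNA per cell cannot be told apart.

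Imprinted genes are expressed mainly from the copy inherited from one parent, because DNA methylation set in the egg or sperm differs between the parental copies. The mark is erased in primordial germ cells and set again later according to sex, so germ cell tumours are often described by the state of their imprints. Many of these genes sit in clusters where a growth regulator lies near a long non-coding RNA expressed from the opposite parental copy, as IGF2 lies near H19 and DLK1 near MEG3. RNA levels such as those given here do not tell which parental copy was read.

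Promoter sequence shows what lies before annotated starts of some members. RefSeq windows on GRCh38.p14, from 250 bases before the start, matched 4 of the 10 genes (H19, MEG3, MEST and SNRPN). The H19 window belonged to another start than the one used here and is not printed. The 4 windows end at the base before the transcript begins, run 5′ to 3′ on the plus strand, and have each CpG, the dinucleotide that is methylated at imprinted promoters, in capitals. MEST is shown at 2 starts because its transcripts were split between them, SNRPN at the start that gave nearly all of its transcripts, and MEG3 at a start that gave almost none.
MEST upstream start, chr7:130485925-130486170: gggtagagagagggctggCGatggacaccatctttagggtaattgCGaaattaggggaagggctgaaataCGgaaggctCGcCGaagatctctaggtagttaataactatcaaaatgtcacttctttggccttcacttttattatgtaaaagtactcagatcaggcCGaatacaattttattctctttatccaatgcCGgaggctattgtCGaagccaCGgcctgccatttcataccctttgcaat
MEST downstream start, chr7:130491808-130492057: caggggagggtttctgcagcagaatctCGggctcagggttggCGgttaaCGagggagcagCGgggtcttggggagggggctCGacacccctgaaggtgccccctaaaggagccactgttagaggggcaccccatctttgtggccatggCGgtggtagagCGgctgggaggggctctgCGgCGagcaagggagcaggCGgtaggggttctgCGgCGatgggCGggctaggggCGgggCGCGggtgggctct
SNRPN start, chr15:24954737-24954926: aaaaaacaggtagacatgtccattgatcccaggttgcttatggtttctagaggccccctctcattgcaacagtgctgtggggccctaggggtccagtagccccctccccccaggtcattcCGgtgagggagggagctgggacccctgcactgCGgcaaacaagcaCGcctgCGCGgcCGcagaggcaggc
MEG3 start, chr14:100825868-100826115: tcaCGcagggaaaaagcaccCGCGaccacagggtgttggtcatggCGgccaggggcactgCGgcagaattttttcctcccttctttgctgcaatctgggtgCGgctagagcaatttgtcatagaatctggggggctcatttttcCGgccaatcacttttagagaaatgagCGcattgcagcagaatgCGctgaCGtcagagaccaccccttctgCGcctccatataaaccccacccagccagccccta

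The MEST windows differed in base composition: the upstream one held 9 CpG in 246 bases with 43.9% G and C, and the downstream one 16 CpG in 250 bases with 68.4% G and C. The SNRPN window held 6 CpG in the 190 bases printed and 12 in its full 250 bases, which reach past the transcript start. The MEG3 window held 11 in 248 bases. The median over 35116 RefSeq windows of 250 bases was 11 CpG. Both strands were searched for 5 motifs. TGCCGC, the hexamer bound by the imprint-keeping protein ZFP57 when methylated, occurred on the minus strand at base 152 of the SNRPN window and base 60 of the MEG3 window, and 12.7% of all windows held it. The GC box GGGCGG occurred at bases 218 and 229 of the downstream MEST window (in 42.6% of all windows). TATAAA occurred at base 223 of the MEG3 window (10.7% of all windows). CCAAT occurred at base 148 of the MEG3 window and base 191 of the upstream MEST window (32% of all windows). GCCATNTT, the YY1 core (3.86% of all windows), matched none of the 4. These matches describe letters only.

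The libraries held between 17685680 and 29318007 reads in genes, and the RBMXL3 pair was the shallowest. RBMXL3 itself had 84 and 68 reads in the RBMXL3 libraries and 0 reads in each of the 4 control libraries, which allows up to 3 reads there. All 9 listed markers of seminoma and primordial germ cells were expressed, led by POU5F1 and NANOG. AFP, a yolk sac marker, had 0 reads in all 6 libraries. The summed normalised counts of the seminoma markers ranged from 117751 to 135131 for WT, 117694 to 129382 for GFP and 121042 to 121665 for RBMXL3. The 6 yolk sac and trophoblast markers summed to 205 to 257 for WT, 190 to 277 for GFP and 349 to 437 for RBMXL3. Of the 8 Sertoli, Leydig and fibroblast markers, GATA1 and CYP17A1 were at 0, and the sum, nearly all COL1A2, was 8407 to 9647 for WT, 11740 to 13199 for GFP and 11896 to 12767 for RBMXL3. The part of these shifts in the results below was not tested.

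Levels of different genes can be set side by side only per length, as TPM (transcript abundance scaled for length and depth) summed over the transcripts of a gene. In WT, H19 was the most abundant of the 10 at 367 ± 5.63 summed TPM (SD, n = 2), rank 394 of the 23441 genes above 0. MEST followed at 112 ± 3.17, PEG10 at 82.5 ± 10.4 and SNRPN at 42.9 ± 5.01 summed TPM, with no overlap between neighbours in this order. PEG3 stood at 11.4 ± 1.48, CDKN1C at 6.44 ± 0.219 and DLK1 at 1.76 ± 0.773 summed TPM, also without overlap. KCNQ1OT1, MEG3 and IGF2 had WT means of 0.0721, 0.0292 and 0.0222 summed TPM, and MEG3 overlapped both others. The order of the first 7 was the same in the means of all 3 groups.

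**Figure D1:**
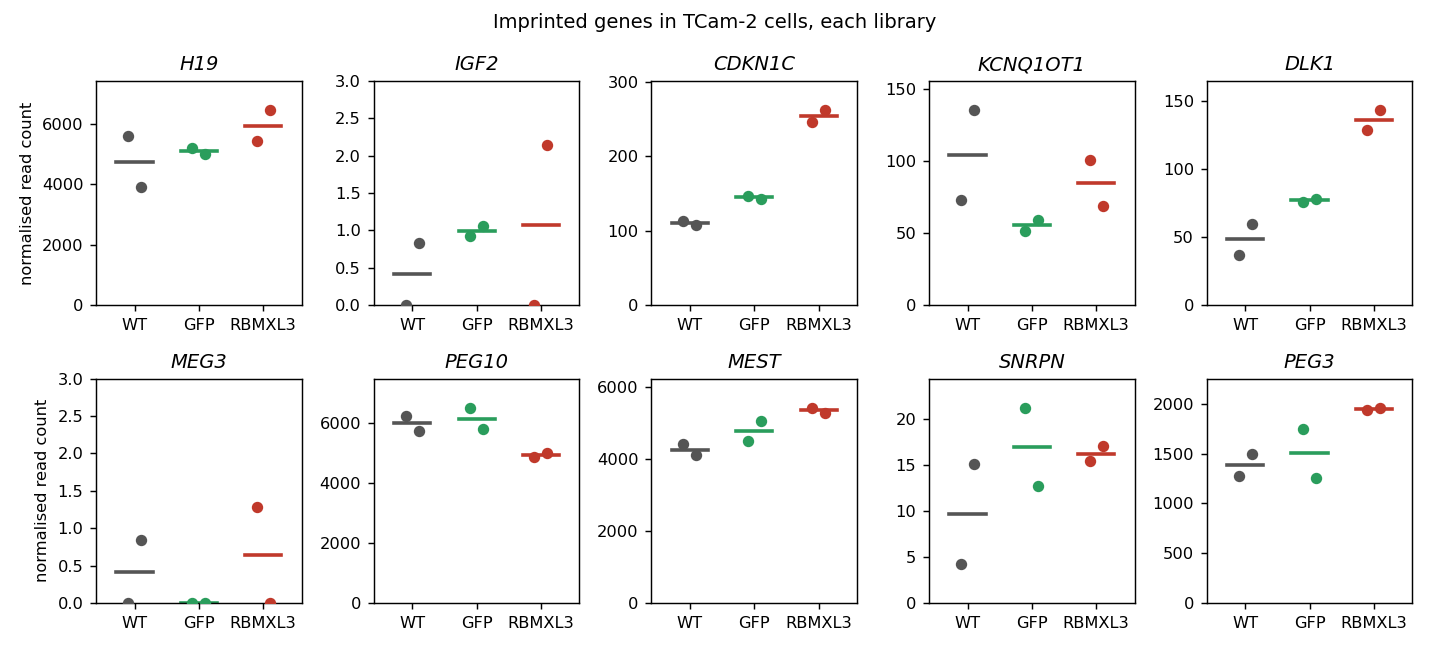
Normalised read counts of the 10 imprinted genes, 1 panel per gene with its own vertical axis from 0; points are libraries and bars are means of 2 libraries per group (WT, GFP, RBMXL3). CDKN1C, DLK1, MEST and PEG3 lay highest in both RBMXL3 libraries, PEG10 lay lowest there, and IGF2 and MEG3 stayed at or below 2.14.

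CDKN1C and DLK1 were higher in RBMXL3 than in both controls, with the largest changes of the 7 tested members against either control. CDKN1C encodes p57, an inhibitor of cyclin-dependent kinases that restrains cell division and is expressed from the maternal copy. It lies at chr11:2883213-2885773 on the minus strand (GENCODE 29, GRCh38). Its normalised counts were 113 and 108 for WT, 147 and 143 for GFP and 246 and 262 for RBMXL3. Both RBMXL3 libraries lay above all 4 controls, and both GFP libraries lay above both WT libraries. The mean was 254 ± 11.4 (SD, n = 2) in RBMXL3, 1.75 times that in GFP and 2.30 times that in WT. On the log2 scale CDKN1C rose by 0.72 (SE 0.136) against GFP and 1.05 against WT, with limma adjusted p of 0.00372 and 0.000253. GFP against WT gave a difference of 0.33, adjusted p 0.178. The call against WT held in 15 of 15 alternatives and that against GFP in 14 of 15. Without RBMXL3 replicate 2 the adjusted p against GFP was 0.0609.

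DLK1 encodes a membrane protein of the Notch ligand family that holds progenitor cells undifferentiated and is expressed from the paternal copy. It lies at chr14:100725705-100738224 on the plus strand. DLK1 had normalised counts of 37.3 and 59.6 for WT, 75.8 and 78.4 for GFP and 129 and 143 for RBMXL3, from 44 to 134 reads per library. The 3 groups did not overlap, in the order WT, GFP, RBMXL3. DLK1 rose by 0.66 (SE 0.175) against GFP and by 1.16 against WT on the log2 scale, with limma adjusted p of 0.0196 and 0.00063. GFP against WT gave 0.50 with adjusted p 0.122. The call against WT held in 15 of 15 alternatives. The call against GFP held in 11 of 15 and was lost without RBMXL3 replicate 1 (adjusted p 0.0753), without RBMXL3 replicate 2 (0.161), without a filter (0.138) and in summed TPM (0.0568).

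PEG10 was lower in RBMXL3 than in GFP. It is a paternally expressed gene derived from a retrotransposon whose Gag-like protein is needed in the placenta, at chr7:94656325-94669695 on the plus strand. Normalised counts of PEG10 were 6237 and 5721 for WT, 6492 and 5777 for GFP and 4859 and 5008 for RBMXL3. Both RBMXL3 libraries lay below all 4 controls, and the controls overlapped each other. PEG10 fell by 0.31 (SE 0.1) on the log2 scale against GFP, limma adjusted p 0.044, and the change against WT was -0.27 with adjusted p 0.0551. The call against GFP held in 6 of 15 alternatives. It was lost when WT replicate 1, WT replicate 2, GFP replicate 1, RBMXL3 replicate 1 or RBMXL3 replicate 2 was left out, with adjusted p of 0.0626, 0.0624, 0.0657, 0.314 and 0.253.

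MEST and PEG3 were higher in RBMXL3 than in WT. MEST, a paternally expressed gene for a hydrolase-like protein of mesoderm, lies at chr7:130486171-130506465 on the plus strand. MEST had normalised counts of 4420 and 4098 for WT, 4507 and 5069 for GFP and 5418 and 5279 for RBMXL3. All 3 groups were separate, with GFP between the others. MEST rose by 0.33 (SE 0.0992) on the log2 scale against WT, limma adjusted p 0.026, and the difference from GFP was 0.16 with adjusted p 0.269. The call against WT held in 10 of 15 alternatives and was lost without either WT library (adjusted p 0.0765 and 0.144) or either RBMXL3 library (0.218 and 0.176).

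PEG3, a paternally expressed zinc finger gene, lies at chr19:56810077-56840728 on the minus strand. For PEG3 the normalised counts were 1276 and 1497 for WT, 1748 and 1258 for GFP and 1938 and 1959 for RBMXL3. The RBMXL3 pair was close together and above all controls, while the GFP pair spanned both WT libraries. PEG3 rose by 0.49 (SE 0.139) on the log2 scale against WT, limma adjusted p 0.0197, and the difference from GFP was 0.39 with adjusted p 0.0648. The call against WT held in 10 of 15 alternatives and was lost without WT replicate 1 (adjusted p 0.196), RBMXL3 replicate 1 (0.0859) or RBMXL3 replicate 2 (0.104). Leaving out GFP replicate 1 gave PEG3 a call against GFP, adjusted p 0.00204.

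H19 and KCNQ1OT1, the 2 non-coding RNAs that were tested, did not pass in any of the 3 comparisons. H19, a maternally expressed RNA that also carries the precursor of miR-675, lies at chr11:1995176-2001470 on the minus strand. Its normalised counts were 5591 and 3900 for WT, 5190 and 4993 for GFP and 5427 and 6442 for RBMXL3. The WT pair spread wider than any other and overlapped the other groups. The log2 difference of RBMXL3 was 0.22 against GFP (95% interval -0.1 to 0.53, limma adjusted p 0.318) and 0.34 against WT (adjusted p 0.0965). Without WT replicate 1 the difference from WT was 0.60 with adjusted p 0.0267.

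KCNQ1OT1 is a paternally expressed antisense RNA within KCNQ1 that silences neighbouring genes in cis, CDKN1C among them, and lies at chr11:2608328-2699994 on the minus strand. Its normalised counts were 72.8 and 135 for WT, 51.7 and 59.3 for GFP and 100.4 and 68.4 for RBMXL3. Both RBMXL3 libraries lay above both GFP libraries, and they overlapped WT. The log2 difference was 0.43 against GFP (95% interval -0.05 to 0.92, limma adjusted p 0.19) and -0.21 against WT (adjusted p 0.505). Against WT the direction turned without WT replicate 2 (0.15) or without RBMXL3 replicate 2 (0.0038). The use of strand in counting is not given in the sources used here, so antisense reads cannot be told apart from those of KCNQ1. Exons of KCNQ1 cover 0.132% of the annotated KCNQ1OT1 bases. The whole of KCNQ1OT1 lies within the KCNQ1 gene (chr11:2444684-2849110), however, and any unspliced KCNQ1 RNA would overlap it. The part of such reads was not tested.

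IGF2 and MEG3 were at or below the detection limit in every library. IGF2, the paternally expressed growth factor next to H19 at chr11:2129112-2149603, had 0 and 1 reads for WT, 1 and 1 for GFP and 0 and 2 for RBMXL3. A second IGF2 entry, which shares 73.7% of its exon bases, had 0 reads in all, as did INS-IGF2. MEG3, the maternally expressed RNA next to DLK1 at chr14:100779410-100861031, had 0 and 1 reads for WT, 0 and 0 for GFP and 1 and 0 for RBMXL3. None of the 12 values exceeded 3 reads, the upper limit that a count of 0 allows, so no difference between groups was detectable at this depth. H19 and DLK1, the other gene of each pair, were both expressed in the same 6 libraries.

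Across the 7 tested members, 2 were higher and 1 was lower in RBMXL3 than in GFP, where 20.9% of all 14292 genes were called (10.5% higher and 10.4% lower). Against WT 4 were higher and 0 lower, beside 29.9% of all genes (14.6% higher, 15.3% lower). CDKN1C and DLK1 were higher against both controls, a call that 6.88% of all genes had. Between GFP and WT, limma called 0 of the 7, beside 3.67% of all genes. In that comparison 3 of the 7 had an unadjusted p under 0.05, and edgeR and DESeq2 also called 0. The groups did not overlap for 7 of 7 members between RBMXL3 and GFP (61.7% of all genes) and for 5 of 7 between RBMXL3 and WT (73.4%). The median log2 difference of the 7 was 0.39 against GFP, 0.34 against WT and 0.12 between the controls, beside 0.00087, -0.014 and -0.0078 over all genes. The first pair of comparisons shares the RBMXL3 libraries, so their calls are not independent.

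**Figure D2:**
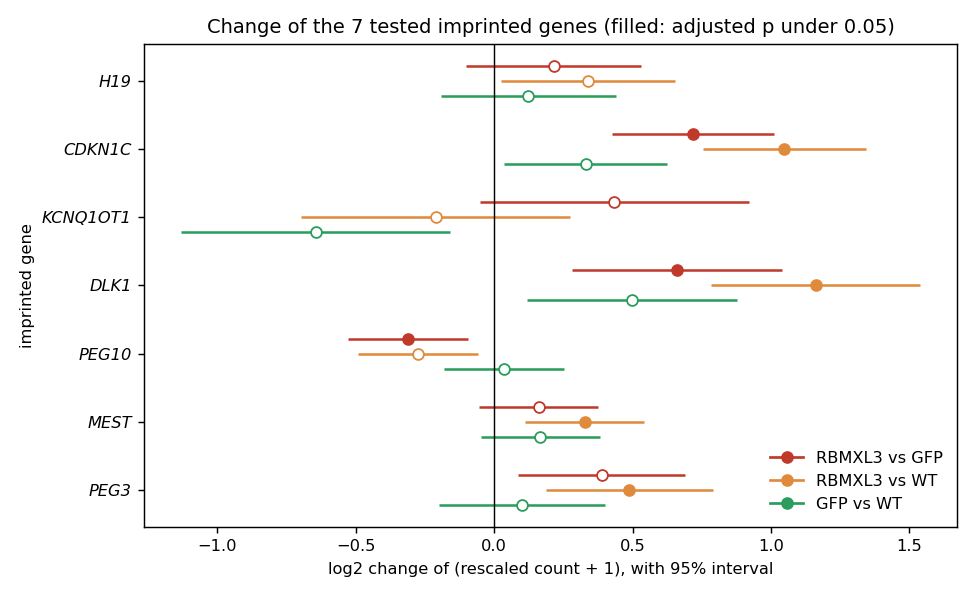
Log2 difference of the 7 tested imprinted genes in 3 comparisons, with limma's 95% intervals; filled points have an adjusted p under 0.05. CDKN1C and DLK1 have filled points against both controls, at 0.66 or above, and none of the GFP against WT points is filled.

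The deposited transcript table gave another view of the same libraries. In summed TPM, CDKN1C was 6.29 and 6.60 for WT, 7.86 and 7.37 for GFP and 14.5 and 14.9 for RBMXL3. It rose by 0.87 against GFP and 1.08 against WT on the log2 scale (limma adjusted p 0.0193 and 0.00741). DLK1 was 1.21 and 2.31 for WT, 1.96 and 1.997 for GFP and 4.41 and 4.75 for RBMXL3 in summed TPM, and it rose by 1.04 against WT (adjusted p 0.033). MEST was 114 and 109 for WT, 113 and 121 for GFP and 149 and 166 for RBMXL3. The summed TPM of MEST rose by 0.42 against GFP (adjusted p 0.0491) and 0.49 against WT (adjusted p 0.028). Of the 7 members with enough TPM, 2 were thus higher against GFP, beside 5.45% of all genes called higher, and 3 against WT, beside 6.97%. PEG10 and PEG3 did not pass in summed TPM.

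SNRPN differed most between the tables. It encodes a protein of the spliceosome in a bicistronic transcript with SNURF, is expressed from the paternal copy, and lies at chr15:24823637-24978723 on the plus strand. The gene table gave SNRPN 5 and 18 reads for WT, 23 and 12 for GFP and 12 and 16 for RBMXL3. The transcript table gave it 39.3 and 46.4 summed TPM for WT, 54.8 and 46.0 for GFP and 41.6 and 38.8 for RBMXL3. From the TPM and the transcript lengths one can compute how many reads a gene would be given, scaled so that the median gene is at 100%. The counted SNRPN reads were 0.439% to 2.01% of that number, while the 5th percentile of all genes lay between 47.2% and 56.0%. SNRPN shares 23.8% of its exon bases with SNURF and 15.8% with AC124312.1 on the same strand, both listed at 0 reads, and 4.13% with SNHG14. The part of these overlaps in the low count was not tested. In summed TPM the log2 difference of SNRPN was -0.31 against GFP (adjusted p 0.168), -0.09 against WT (adjusted p 0.685) and 0.23 between the controls (adjusted p 0.424).

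H19 was also counted below its TPM. Its reads were 40.0% and 29.3% of the number implied for WT, 28.4% and 34.8% for GFP and 31.7% and 31.8% for RBMXL3, all under the 5th percentile of all genes. The WT libraries, which differed for H19 in the gene table, were 371 and 363 in summed TPM. GFP had 455 and 351 and RBMXL3 482 and 589, so both RBMXL3 libraries lay above all controls. In summed TPM the log2 difference of H19 was 0.41 against GFP (limma adjusted p 0.135) and 0.54 against WT (adjusted p 0.066), and neither passed. CDKN1C was counted at 61.4% to 69.0%, and MEST, PEG10, PEG3 and DLK1 within 90% to 100% in every library.

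**Figure D3:**
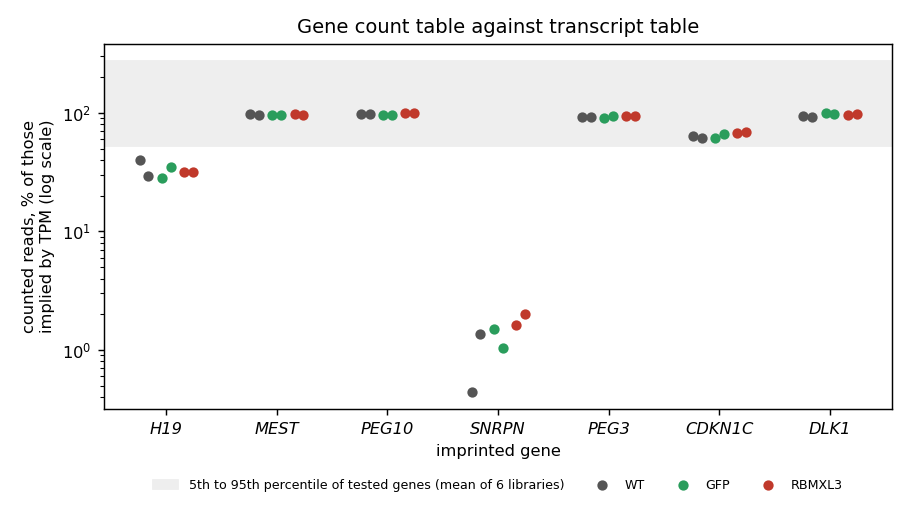
Reads counted in the gene table as a percentage of those implied by TPM and transcript length, for the 7 imprinted genes with enough TPM (log scale); each point is a library, and the grey band spans the mean 5th to 95th percentile of all genes. SNRPN lies between 0.439% and 2.01% and H19 between 28.4% and 40.0%, both below the band.

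The TPM of transcripts that share an annotated start was then summed. A gene being read from a start means here the TPM assigned to those transcripts. Start positions were not measured directly, so promoter use is inferred. H19 came almost wholly from starts between 1996191 and 1997875 on chromosome 11, which held 99.7% ± 0.132 (SD, n = 2) of its TPM in WT. SNRPN came from the start at 24954927 on chromosome 15, printed above, with 98.5% ± 0.936 of its TPM in WT, 97.3% ± 0.64 in GFP and 97.2% ± 1.78 in RBMXL3. This start lies within the imprinting centre of the Prader-Willi region. The MEG3 start printed above gave almost no transcripts.

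By assigned TPM, MEST came mainly from the upstream start, with transcript MEST-202. Whether that start was read from a single parental copy was not measured. That start had 108 and 102 TPM for WT, 96.5 and 108 for GFP and 132 and 131 for RBMXL3. Its share of MEST was 94.3% ± 1.24 for WT, 87.4% ± 2.23 for GFP and 83.8% ± 6.7 for RBMXL3. The downstream start, led by MEST-201 whose window is printed above, had 4.89 and 6.68 TPM for WT, 14.5 and 13.1 for GFP and 17.0 and 16.3 for RBMXL3. Both groups of transduced cells lay above WT, and the downstream start held 5.20% ± 1.28 of MEST TPM for WT, 11.8% ± 1.46 for GFP and 10.6% ± 1.12 for RBMXL3. The downstream start of MEST rose by 1.39 on the log2 scale in RBMXL3 against WT (limma adjusted p 0.0299). GFP against WT gave 1.14 with adjusted p 0.317, and RBMXL3 against GFP 0.25 with adjusted p 0.409. The call held in 4 of 10 alternatives and was lost without either WT library (adjusted p 0.117 and 0.076) or either RBMXL3 library (0.217 and 0.191). A further start, of MEST-212, had 18.0 TPM in RBMXL3 replicate 2 and 0 in the other 5 libraries.

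PEG3 had TPM assigned to an inner and an outer start on the minus strand of chromosome 19. The inner start at 56837818, of PEG3-213, had 6.08 and 9.46 TPM for WT, 10.2 and 6.64 for GFP and 6.16 and 6.50 for RBMXL3, and the groups overlapped. The outer start at 56840726, led by PEG3-211, had 4.27 and 2.98 TPM for WT, 3.52 and 2.62 for GFP and 9.92 and 10.5 for RBMXL3. Both RBMXL3 libraries lay far above all 4 controls. The outer start held 61.6% ± 0.164 of PEG3 TPM in RBMXL3, 27.0% ± 1.85 in GFP and 32.6% ± 12.2 in WT. Its log2 difference was 1.47 against GFP and 1.29 against WT, with limma adjusted p of 0.0482 and 0.0498. These calls lie at the threshold: they held in 0 of 10 and 2 of 10 alternatives, with adjusted p up to 0.283 and 0.263 and the same direction in each. Leaving out any single library ended the call against GFP, and all but GFP replicate 1 ended that against WT.

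**Figure D4:**
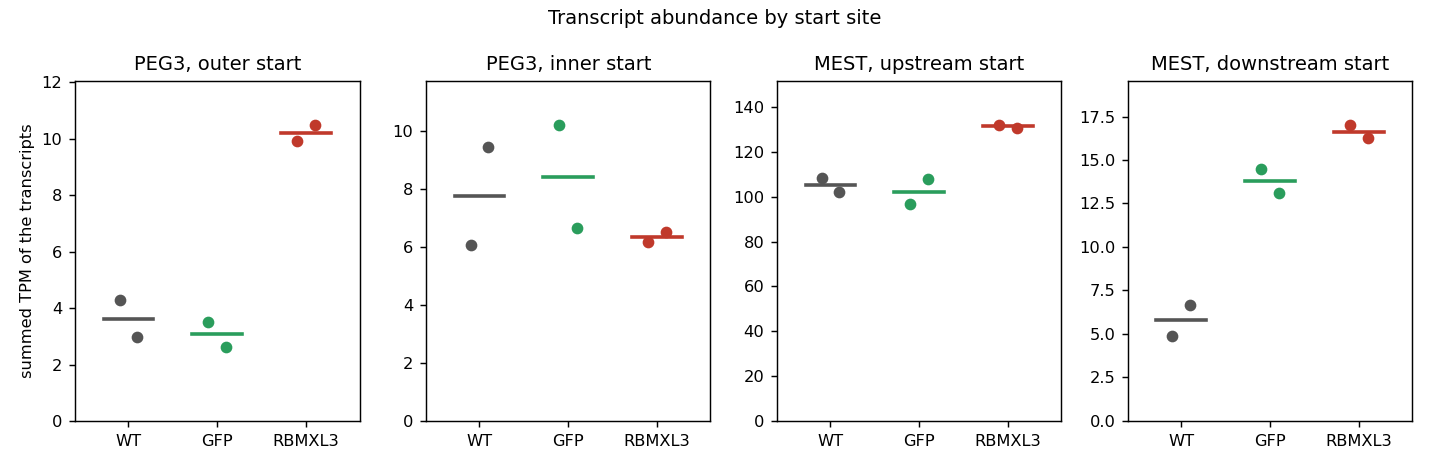
TPM by transcript start for PEG3 and MEST; points are libraries and bars are means of 2 libraries per group, each panel with its own axis from 0. The outer PEG3 start is at 9.92 and 10.5 TPM in RBMXL3 and at most 4.27 in the controls, and the downstream MEST start is at 4.89 and 6.68 TPM in WT and at least 13.1 in the other libraries.

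PEG10 also had TPM assigned to 2 starts. The inner start, of the short transcript PEG10-201, had 21.2 and 20.2 TPM for WT, 28.6 and 24.6 for GFP and 5.80 and 12.9 for RBMXL3. Its share was 25.3% ± 2.29 for WT, 30.9% ± 3.03 for GFP and 13.3% ± 5.57 for RBMXL3, with both RBMXL3 libraries below the controls. The log2 difference of the PEG10 inner start was -1.50 against GFP (limma adjusted p 0.0901) and -1.16 against WT (adjusted p 0.133). CDKN1C was read mainly from the start led by CDKN1C-204, with 94.6% ± 1.07 of its TPM for WT, 100% for GFP and 99.3% ± 1.05 for RBMXL3, and the rest from that of CDKN1C-205. The CDKN1C-204 start rose by 0.86 against GFP (adjusted p 0.0416) and 1.14 against WT (adjusted p 0.0225). The calls of this start held in 2 of 10 and 4 of 10 alternatives, and were lost when any single library was left out against GFP, or any WT or RBMXL3 library against WT (highest adjusted p 0.277 and 0.194).

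Of 12 member starts tested, 2 were called higher against GFP, beside 1.16% of all 23881 starts, and 3 higher against WT, beside 1.58%. Between the controls limma called 0 of the 12 starts (0% of all), and 1 had an unadjusted p under 0.05. Of 28 transcripts of the members tested one by one, limma called 0 in each comparison, where 1.25%, 1.53% and 0% of all transcripts were called. Unadjusted p-values under 0.05 were found for 8, 10 and 2 of the 28. In simulated transcripts the same test recovered 0% of changes of 1 and 15% of changes of 2 on the log2 scale, so a change of such size in a single transcript would mostly be missed.

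Neighbours within the same imprinted domains were read next. Of 23 listed neighbours 12 could be tested, of which 2 were higher and 1 lower against GFP, and 3 higher and 1 lower against WT, beside the 20.9% and 29.9% of all genes called in either direction. These shares are near those of all genes. Their median log2 difference was -0.06 against GFP and -0.12 against WT. DIO3, the thyroid hormone deiodinase gene at the far end of the DLK1 and MEG3 domain, had normalised counts of 36.4 and 30.2 for WT, 72.1 and 38.1 for GFP and 111 and 138 for RBMXL3. DIO3 rose by 0.94 against GFP and 1.37 against WT on the log2 scale (limma adjusted p 0.00848 and 0.000632), and the call against GFP was lost without RBMXL3 replicate 2 (adjusted p 0.0813) and without a filter (0.106). RTL1, between DLK1 and DIO3, had 1 to 10 reads per library, and MEG8 and MEG9 had 0 in all.

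On chromosome 11 SLC22A18, a transporter gene near CDKN1C, had normalised counts of 86.4 and 97.3 for WT, 121 and 108 for GFP and 158 and 182 for RBMXL3. It rose by 0.49 against GFP (limma adjusted p 0.0365, held in 5 of 15 alternatives) and 0.74 against WT (adjusted p 0.00325, held in 14 of 15). KCNQ1, the potassium channel gene of the same domain, rose by 0.60 against WT (adjusted p 0.0277, held in 7 of 15). PHLDA2, a maternally expressed placental growth gene beside SLC22A18, passed against neither control. Its log2 difference was 0.23 against WT (limma adjusted p 0.373) and -0.07 against GFP (adjusted p 0.819).

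On chromosome 7 SGCE, a paternally expressed sarcoglycan gene that shares its promoter region with PEG10, had normalised counts of 1024 and 784 for WT, 730 and 860 for GFP and 591 and 583 for RBMXL3. SGCE fell by 0.42 against GFP (limma adjusted p 0.0429, held in 9 of 15 alternatives) and by 0.59 against WT (adjusted p 0.00647, held in 13 of 15). The exons of PEG10 and SGCE overlap on opposite strands over 3.27% of the PEG10 exon bases, where reads cannot be told apart without strand. On chromosome 15 NDN and UBE3A had the highest TPM of the listed neighbours. In the gene table neither NDN nor UBE3A passed in RBMXL3 against a control. In summed TPM UBE3A was lower against WT by 0.54 on the log2 scale (adjusted p 0.0456). In the gene table UBE3A was lower in GFP than in WT by 0.41 on the log2 scale (adjusted p 0.0431, held in 7 of 15). KCNQ1 and UBE3A are named because few neighbours were called, after their values were seen.

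**Figure D5:**
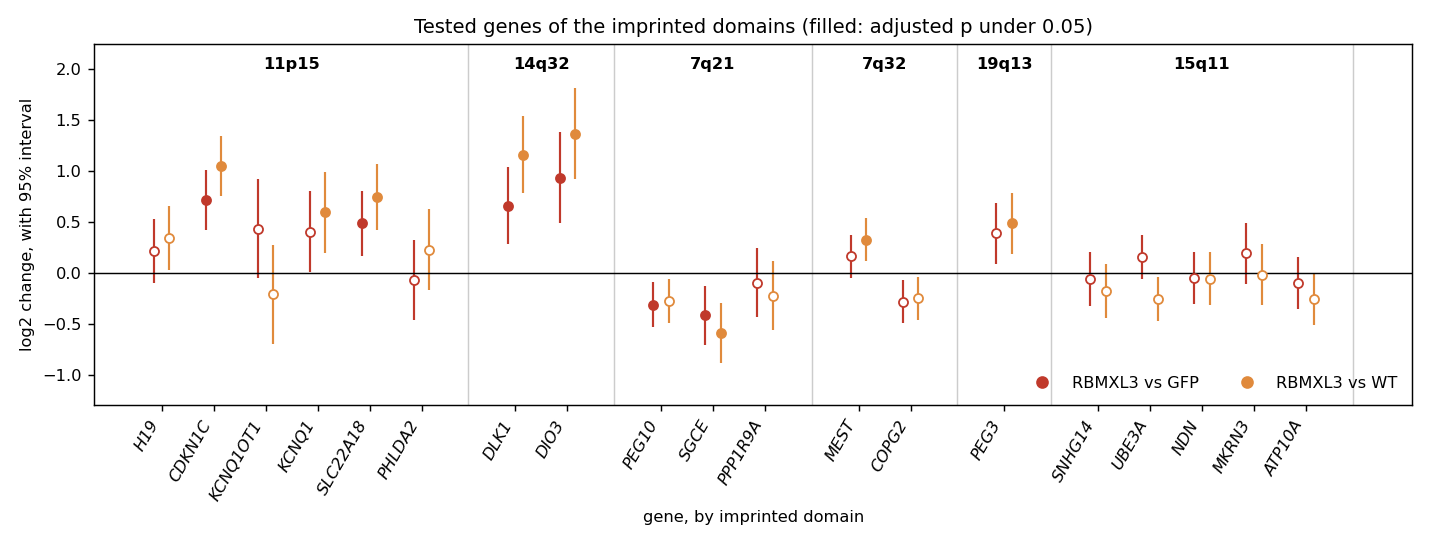
Log2 difference of RBMXL3 against GFP and against WT for the 19 tested genes of the imprinted domains, 7 members and 12 neighbours, with limma's 95% intervals; filled points have an adjusted p under 0.05. CDKN1C, DLK1, DIO3 and SLC22A18 lie above 0 with both points filled, SGCE lies below 0 with both points filled, and none of the 15q11 points is filled.

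Of 22 listed imprinted genes of other domains 14 were tested, with 2 calls against GFP (20.9% of all genes) and 2 against WT (29.9%). Against both controls in one direction, a call that 13.7% of all genes had, limma called 0 of the 14, as did edgeR and DESeq2, while 2 had unadjusted p under 0.05 in the same direction against both. ZDBF2 and RB1 rose by 0.48 and 0.59 against GFP (adjusted p 0.0115 and 0.0162), and each call held in 11 of 15 alternatives and was lost without either RBMXL3 library. In summed TPM the RB1 difference was 0.17 (adjusted p 0.61). Against WT, NAP1L5 rose by 0.49 (adjusted p 0.0479, held in 5 of 15) and PLAGL1 fell by 0.71 (adjusted p 0.00355, held in 13 of 15). ZDBF2 was lower in GFP than in WT by 0.54 (adjusted p 0.0267, held in 8 of 15). These 4 genes are named after their values were seen, since few were called. GNAS and BLCAP, which had the highest TPM of this list, passed in none of the 3 comparisons.

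Most genes for proteins that keep imprints through cell division were expressed. Of 11 listed genes 9 were tested. Limma called 0 against GFP, beside 20.9% of all genes, with 0 at an unadjusted p under 0.05 and 0 by edgeR or DESeq2. Against WT limma called 1, lower, beside 29.9% of all genes, and edgeR and DESeq2 called 0. In summed TPM 2 of the listed genes were higher against GFP, beside 5.45% of all genes called higher. UHRF1, which brings DNMT1 to replicated DNA, rose by 2.27 on the log2 scale in summed TPM (limma adjusted p 0.0172). NLRP7 rose by 0.51 in summed TPM (adjusted p 0.0341). In the gene table neither UHRF1 nor NLRP7 had an unadjusted limma p under 0.05 against GFP, so the 2 tables differ here. These summed TPM calls were not taken through the alternatives. NLRP7 was also higher against WT in summed TPM, by 0.41 (adjusted p 0.0405), and both genes are named after their values were seen. TRIM28, a corepressor recruited by ZFP57, and NLRP2, a maternal-effect factor, had the highest TPM. ZFP57 itself had 0 or 1 reads per library and KHDC3L had 0 in all. CTCF, the insulator protein that separates IGF2 from the enhancers it shares with H19, was 0.28 lower against WT (limma adjusted p 0.0469, held in 4 of 15 alternatives and named after its value was seen).

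Genes that act with the products of IGF2, CDKN1C and H19 were all tested. Of these 18, 5 were higher and 2 lower against GFP (20.9% of all genes in either direction), and 7 higher and 5 lower against WT (29.9%). IGFBP3 and CDKN1A were higher in GFP than in WT by 0.73 and 0.75 on the log2 scale (limma adjusted p 0.0132 and 0.011, each held in 11 of 15 alternatives) and in RBMXL3 than in WT by 0.92 and 1.01 (adjusted p 0.00023 and 7.18e-05), and are named after their values were seen. CDKN1B, which encodes p27, an inhibitor of the same family as p57, had normalised counts of 780 and 815 for WT, 666 and 945 for GFP and 1678 and 1775 for RBMXL3. CDKN1B rose by 1.097 against GFP and 1.09 against WT on the log2 scale (limma adjusted p 0.000503 and 0.00023), and both calls held in 15 of 15 alternatives. CCNE1 and CCNE2, cyclins E that p57 and p27 restrain, fell by 0.59 and 0.40 against GFP and by 0.59 and 0.86 against WT (adjusted p 0.00286, 0.0362, 0.00176 and 0.000426). In summed TPM the CCNE1 difference from GFP was -0.32 (adjusted p 0.144). The CCNE2 call against GFP held in 7 of 15 alternatives, and CCNE2 is named after its values were seen.

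IGFBP2 and IGFBP5, secreted proteins that bind IGF1 and IGF2, rose against both controls. IGFBP2 had normalised counts of 114 and 93.1 for WT, 85.9 and 132 for GFP and 260 and 290 for RBMXL3, and rose by 1.19 and 1.23 on the log2 scale (limma adjusted p 0.00121 and 0.000493). IGFBP5 had 99.9 and 81.4 for WT, 92.4 and 82.6 for GFP and 169 and 170 for RBMXL3, and rose by 0.80 and 0.76 (adjusted p 0.00381 and 0.00315). In summed TPM neither IGFBP5 call held (adjusted p 0.0971 and 0.111), and without a filter that against GFP was lost (0.0541). IGF2BP1 and IGF2BP3, RNA-binding proteins that bind IGF2 and H19 transcripts, had the highest TPM of this list. IGF2BP3 rose by 0.44 against GFP (adjusted p 0.0251, held in 10 of 15 alternatives), and the IGF2BP1 differences did not pass.

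Single marker genes moved in both directions. Of the 9 seminoma and germ cell markers, 0 were higher and 2 lower against GFP, beside 10.5% and 10.4% of all genes. Against WT 1 was higher and 3 lower, beside 14.6% and 15.3% of all genes. KIT, the receptor for stem cell factor, fell by 0.39 and 0.80 on the log2 scale against GFP and WT (limma adjusted p 0.015 and 0.000159, held in 11 and 14 of 15 alternatives), and was lower in GFP than in WT by 0.41 (adjusted p 0.0407). LIN28A, which blocks let-7 maturation, fell by 0.37 and 0.33 (adjusted p 0.0345 and 0.0412), calls that held in 9 and 8 of 15 alternatives. In summed TPM neither KIT nor LIN28A passed, and the LIN28A differences were -0.0079 and -0.087. Against WT POU5F1 rose by 0.46 (adjusted p 0.0155, held in 11 of 15) and PRDM1, named after its values were seen, fell by 0.41 (adjusted p 0.00891, held in 12 of 15).

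FOXA2, an endoderm transcription factor in the yolk sac and trophoblast list, had normalised counts of 23.7 and 28.5 for WT, 24.0 and 25.4 for GFP and 66.9 and 84.5 for RBMXL3. FOXA2 rose by 1.03 and 0.99 on the log2 scale against GFP and WT (limma adjusted p 0.00206 and 0.00145), and both calls held in 15 of 15 alternatives. HAND1 rose by 0.56 against WT (adjusted p 0.0402, held in 8 of 15). Of the 4 embryonal carcinoma markers, limma called 1 higher against GFP (20.9% of all genes in either direction) and 2 higher against WT (29.9%). Against GFP edgeR and DESeq2 called 0 of these markers. DNMT3B rose by 0.37 against WT (adjusted p 0.0158, held in 9 of 15) and TDGF1 did not pass. The other calls were of markers not named here. Of the 3 Sertoli, Leydig and fibroblast markers tested, limma called 0 in RBMXL3 against GFP and 2 higher against WT. Between the controls 2 were higher in GFP, beside 3.67% of all genes in either direction. COL1A2 was higher than in WT by 0.44 in RBMXL3 and 0.46 in GFP (adjusted p 0.0109 and 0.0418, held in 10 and 7 of 15), with a difference of 0.027 for RBMXL3 in summed TPM, and AMH did not pass. The part of these markers in the members' values was not tested.

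Pearson correlation of log2(value + 1), given as a description, was run for DLK1, CDKN1C and PEG3, the called members with the largest log2 changes. The called members MEST and PEG10 were left out. The genes that followed each most closely over the 6 libraries are named. For DLK1 they were NFATC4 (0.998), NECAB3 (0.997) and RFNG (0.996). For CDKN1C they were CEP131 (0.999), THEM6 (0.999) and PHLDA3 (0.997). For PEG3 they were DOCK6 (0.998), HDAC6 (0.995) and NISCH (0.992). With 6 libraries in 3 groups such values are common: 304 tested genes reached 0.95 with DLK1, 497 with CDKN1C and 143 with PEG3.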

How the data were processed

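Per the labels' protocols, RNA from TCam-2 cells was made into stranded polyadenylated mRNA libraries. The submitters' processing notes name Trim Galore 0.6.10, STAR 2.7.11a, DESeq2 and Salmon 1.10.2 with GRCh38 (hg38). The counter, its use of strand, the annotation release and filters are not given in the sources used here.

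The authors' deposited gene table holds a normalised signal. Its name says CPM, but every nonzero value (100% of 145320, relative tolerance 1e-06) came out as whole reads once the step between values in its library was known, which makes them reads scaled by 1 factor for each library. The authors' deposited transcript table holds TPM, which keeps no depth, so transcript values have no counting interval. All value columns map to a sample, leaving 0 unused. Gene and transcript coordinates are those of GENCODE 29, which holds 80% of the transcripts.

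The planned test had assumed CPM, so gene values were divided by a common factor of 23.9 to put the mean column total on the CPM scale. Genes that reached a rescaled value of 1 in 2 or more libraries were tested as log2(value + 1), all 6 libraries in a single limma fit (limma 3.58.1 under R 4.3.3). Tests were two-sided, with Benjamini-Hochberg adjustment over all genes tested and a call under 0.05. Log2 changes on this scale understate changes of low genes. Summed TPM, transcripts and starts were tested in the same way on log2(TPM + 1). Starts within 500 bases were joined, a grouping added after the data were seen.

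On recovered reads, edgeR 4.0.16 called 2848, 4157 and 474 genes for RBMXL3 against GFP, for RBMXL3 against WT and between the controls, and DESeq2 1.42.0 called 2497, 3587 and 695. Other alternatives were quantile or TMM scaling, a pseudocount of 0.1, other filters, a replicate block and each library left out. In simulated data of 14292 genes, of which 200 carried a log2 change of 1, the gene test recovered 91.5% against GFP and 93% against WT, with 8 false calls each. The simulation gave all genes and groups the same dispersion. In the data the median log2 difference between replicates was 0.124 for WT, 0.183 for GFP and 0.0772 for RBMXL3. Recovery in the data may therefore differ. Limits of 3 reads for a count of 0 cover counting error only.

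All 10 members are named. From the other lists, genes called in one direction against both controls (at most 4 a list) and the pair of highest mean TPM are named, and others only where stated. The members and lists were chosen with earlier results of these data known.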

Additional observations from a re-analysis of the deposited data

How the results depend on the processing

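The replicate numbers pair no samples: the deviations of same-numbered libraries correlated at -0.094 (RBMXL3 with GFP), 0.034 (RBMXL3 with WT) and -0.156 (GFP with WT) over 14292 genes. A replicate block took the genes called between GFP and WT from 524 to 191, transcripts called from 557 and 685 to 69 and 69 (RBMXL3 against GFP and against WT), and starts called from 509 and 775 to 32 and 76. Among the members' gene values the block ended only the PEG10 call against GFP (adjusted p 0.0698), and it ended each call of a member start. Without a filter, genes called fell from 2986, 4271 and 524 to 950, 2327 and 0 for RBMXL3 against GFP, for RBMXL3 against WT and between the controls. Members called fell from 3 to 1, from 4 to 2 and, against both controls, from 2 to 1, transcripts to 152 and 183, and starts to 46 and 109. Summed TPM called 989, 1644 and 0 genes, and quantile scaling called 327 between the controls. In summed TPM the PEG3 difference of GFP from WT turned to -0.0081. Leaving out single libraries gave 679 to 4304 genes and 0 to 4 members against GFP, 1428 to 6155 genes and 2 to 5 members against WT, 0 to 2770 genes and 0 to 1 members between the controls, and 0 to 4 members against both. Transcripts called ran from 0 to 660 and 1 to 827, and starts from 0 to 535, 0 to 1154 and 0 to 3. The log2 differences that turned over single libraries were those of KCNQ1OT1 in RBMXL3 against WT (-0.57 to 0.15) and, between the controls, of H19 (-0.13 to 0.38), PEG10 (-0.048 to 0.12) and PEG3 (-0.13 to 0.33). Where a lone library was left in a group, it was assumed to vary like the others. Of 186 values of the 7 tested members under other settings, 174 kept direction and call, 9 lost the call, 2 gained one and 1 turned. Of 126 values with a library left out, 98 kept both, 15 lost the call, 6 gained one and 7 turned. The cause of these changes was not tested. Depth limits IGF2 and MEG3, whose reads per library were too few for any difference to be detectable.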
